A study of Mus musculus with 6 samples.

Results

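The immunoglobulin light chain gene segments are the rows of the 4 deposited gene tables whose symbol starts with Igkv or Igkj and a digit, is Igkc, or starts with Iglv, Iglj or Iglc and a digit. They number 111 of 14468 gene identifiers. They comprise 94 kappa variable (V) segments, 5 kappa joining (J) segments, the kappa constant region Igkc, 3 lambda V segments, 4 lambda J segments and 4 lambda constant regions. RNA was sequenced from LSK cells of C57BL/6 mice, the Lin- Sca-1+ c-Kit+ bone marrow fraction that holds stem cells and multipotent progenitors. The groups were wild type (WT) and Setd2 knockout (KO), taken 4 weeks (young) or 8 months (old) after pI-pC, a double-stranded RNA used to induce deletion. All 4 groups carry the pI-pC label, and each has 1 library made from 100 ng of total RNA. The driver of the deletion and the number of mice per library are not given in the sources used here. With 1 library per group no difference has a replicate check, so no p-value or SD is given and every comparison describes these libraries only.

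An antibody light chain is made from the kappa or the lambda locus. In B cell precursors the RAG recombinase joins a V segment to a J segment, and splicing then attaches the constant region, so that a mature light chain RNA holds a single V, a single J and a single constant region. B cells pass their join on to their descendants, so V use describes the mixture of B lineage cells in a sample. Plasma cells, which secrete antibody, hold these RNAs at very high levels. LSK cells are sorted to lack lineage markers and are not antibody-making cells.

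Values are FPKM (fragments per kilobase of transcript and per library total), divided by a scale factor per library of 0.979 to 1.06. Wherever 4 values stand in a row they are for WT and KO at the young time and then for WT and KO at the old time, and in pairs WT comes first. Each file lists only genes at an FPKM of 0.5 or more. A segment that is not listed was taken as 0 in sums and shares and as 0.5 in folds, which makes those folds lower bounds. Between 13182 and 13327 genes were listed per library. Setd2 stood at 14.1, 12.4, 15.3 and 15.5, a gene-level value that does not show whether part of the gene is deleted. Xist was listed in both old libraries and in neither young one. Among LSK markers Kit lay between 41.1 and 61.0 and Cd34 between 49.5 and 60.4 in the 4 libraries, whereas Ly6a, which encodes Sca-1, lay between 3.17 and 8.80.

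Light chain RNA was low in the young libraries, by far the highest in the old WT library, and intermediate in old KO. The summed scaled FPKM of all segments was 826, 1333, 59235 and 7840. It took 0.378%, 0.551%, 18.8% and 2.94% of all FPKM. The KO library was 1.61-fold above WT at the young time, a difference of 0.69 on the log2 scale, and 7.56-fold below WT at the old time, a difference of -2.92. Fewer cells of a type and less RNA per cell cannot be told apart in such bulk samples. The 13 plasma cell markers summed to 46.8, 62.4, 2224 and 215, the same order of libraries, and their part in the light chain differences was not tested.

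Igkc, the kappa constant region (chromosome 6, 70726435 to 70726966, mm10), made up most of this RNA. Its scaled FPKM was 533, 820, 39780 and 5285, which is 61.5% to 67.4% of the light chain sum. The summed kappa V segments had the same order, with 256, 451, 16653 and 2209. The lambda constant regions summed to 11.9, 18.8, 1377 and 161, and the lambda V segments to 11.9, 22.4, 1271 and 158. Each class was highest in old WT, and its KO library at that age was 7.53-fold to 8.54-fold lower for V and constant segments of both loci. The J segments differed by less, with kappa sums of 11.5, 14.5, 126 and 21.3.

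**Figure D1:**
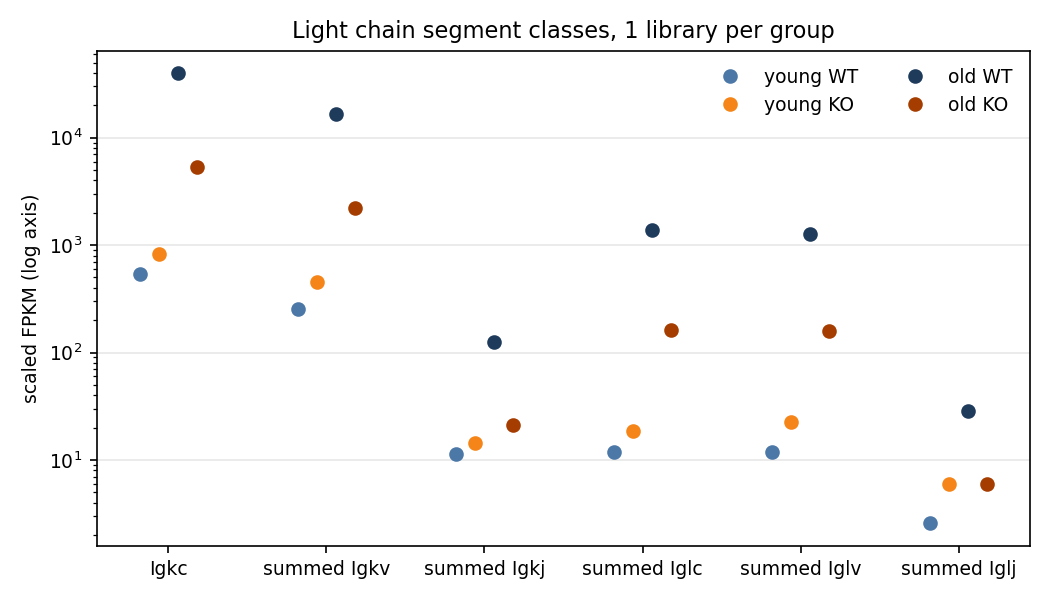
Scaled FPKM (log axis) of Igkc and of the summed segments of each other class, with 1 point per library. Old WT is the highest in every class, and Igkc runs from 533 in young WT to 39780 in old WT.

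Kappa RNA dominated in all 4 libraries. By constant regions the kappa share was 97.8%, 97.8%, 96.7% and 97.0%, and the ratio of kappa to lambda was 44.8, 43.7, 28.9 and 32.8. By V segments the lambda share was larger, at 4.43%, 4.73%, 7.09% and 6.66%, against 2.18%, 2.24%, 3.34% and 2.96% by constant regions. By either measure lambda took a larger share in the old libraries than in the young ones, and the genotypes of an age lay closer to each other than the ages did.

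V and constant segments stood in different relations at the 2 loci. Per kilobase, the summed kappa V segments reached 0.480, 0.550, 0.419 and 0.418 of Igkc. The summed lambda V segments reached 0.997, 1.19, 0.923 and 0.978 of the lambda constant regions. The kappa V level was thus well below that of its constant region in each library, and the lambda V level was near it. The assignment of reads that match several similar segments and the use of strand are not given in the sources used here. Values of close copies are therefore uncertain.

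The mouse lambda locus is small, and a single V segment and a single constant region carried most of its RNA. Iglc1 (chromosome 16, 19061618 to 19062071) stood at 10.6, 15.1, 1183 and 150, or 80.7% to 92.9% of the lambda constant regions. Iglv1 (chromosome 16, 19085017 to 19085500) stood at 9.79, 19.6, 1056 and 143, or 82.6% to 90.5% of the lambda V segments. These segments had similar levels in every library. The other lambda segments were low outside old WT.

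Iglv2 stood at 2.06, 2.21, 21.4 and 6.10. Iglv3 was not listed in young WT and stood at 0.592, 194 and 8.90 in the others. Iglc2 stood at 1.29, 2.12, 154 and 7.17. Iglv3 and Iglc2 differed more between the old genotypes than Iglv1 and Iglc1, at -4.30 and -4.24 against -2.88 and -2.97 on the log2(scaled FPKM + 1) scale. Iglc3 was listed in every library but young WT and stood at 40.1 and 3.50 in the old pair. Iglc2 and Iglc3 are close copies and the row of Iglc2 overlaps Iglj2, so their values are uncertain. The constant region pseudogene Iglc4 was listed in old KO alone, at 0.720.

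The J segments are too short for these values to measure well. Those of the kappa locus span 38 to 43 bases. From the spacing of low values, 1 counted unit on 38 bases equals an FPKM of 2.75, 2.92, 1.47 and 1.46. Every kappa J segment rested on about 1 unit or less in both young libraries, so J use cannot be read there.

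In old WT Igkj4 was the highest kappa J segment, at 46.5, followed by Igkj3 at 24.6, Igkj5 at 24.2, Igkj1 at 16.5 and Igkj2 at 13.9. In old KO Igkj4 stood at 5.95, Igkj3 at 5.35, Igkj5 at 3.53, Igkj2 at 3.45 and Igkj1 at 2.98, each on about 4 units or fewer. Neighbours in that order cannot be told apart on so few units. Among lambda J segments Iglj2 reached 19.5 in old WT and stood at 2.58, 2.97 and 1.49 in the other libraries. Iglj1 and Iglj3 were listed in the old libraries alone, on at most 2 units each. The pseudogene Iglj3p was listed in all but young WT, and its value in young KO rests on 1 unit.

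Nearly all functional kappa V segments were seen in at least 1 library. RefSeq annotates 102 Igkv segments as functional and 60 as pseudogenes on GRCm38, and 91 of the former and 3 of the latter were listed. The functional segments listed numbered 55, 55, 91 and 78. The 11 found in no file were Igkv1-35, Igkv4-60, Igkv4-71, Igkv4-78, Igkv4-81, Igkv4-92, Igkv6-29, Igkv7-33, Igkv8-23-1, Igkv18-36 and Igkv20-101-2. Of all 111 light chain segments, 56 were listed in all 4 libraries, 16 in the old pair alone and 14 in old WT alone. Every segment listed in a young library was also listed in old WT.

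An annotated pseudogene was among the highest kappa V segments. Igkv14-126 (ENSMUSG00000094345, chromosome 6, 67896172 to 67896642) stood at 20.3, 74.3, 210 and 143. Its share of kappa V RNA was 7.94%, 16.5%, 1.26% and 6.49%, and it ranked 3, 1, 23 and 3 among these segments. Old WT was 10.4-fold above young WT at this segment, against 65.2-fold for the kappa V sum. Its share was smallest in the library with the most light chain RNA.

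The kappa V segments lie on chromosome 6 between Igkv2-137, which is 3.17 Mb from Igkj1, and Igkv3-1, which is 18.4 kb from it. RNA came from the whole span. The 36 segments within 1 Mb of Igkj1 held 38.8%, 40.3%, 48.4% and 33.7% of kappa V RNA. The 29 segments beyond 2 Mb held 48.0%, 51.3%, 42.3% and 32.0%. The 29 segments between them held 13.2%, 8.44% and 9.35% in the first 3 libraries and 34.3% in old KO. Without the single segment Igkv4-59 the last value was 12.5%.

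**Figure D2:**
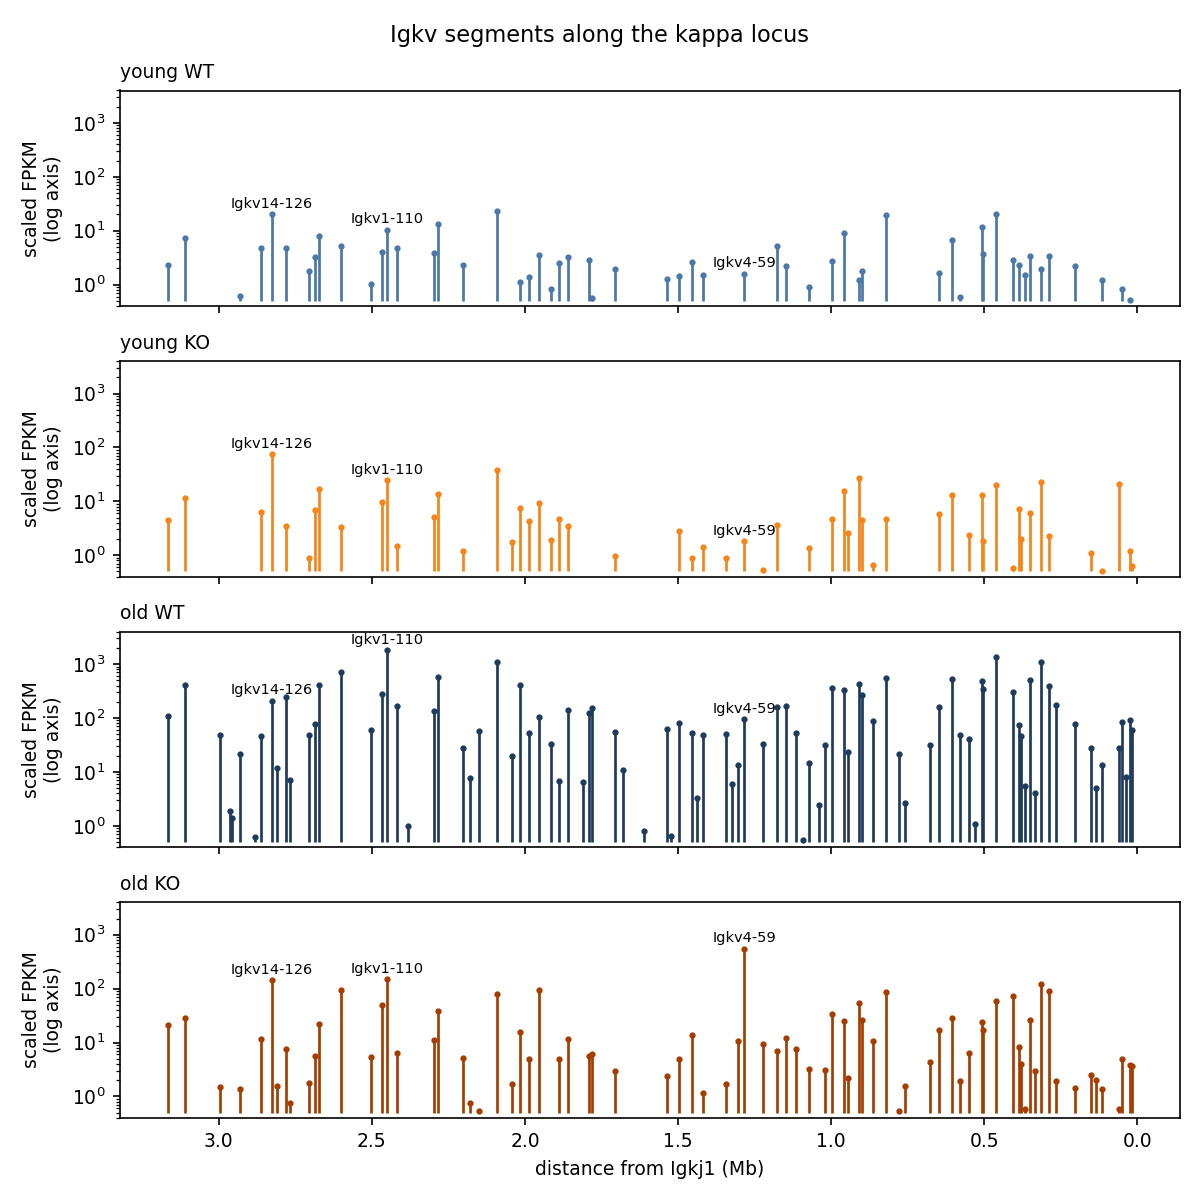
Scaled FPKM (log axis) of each listed Igkv segment against its distance from Igkj1 in Mb, with 1 panel per library. Igkv4-59 is the highest segment in old KO, at 549, and ranks 35 or lower in the other libraries.

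Old WT used many kappa V segments. Its highest was Igkv1-110 at 1830, followed by Igkv6-23 at 1346, Igkv10-96 at 1116, Igkv6-15 at 1093 and Igkv1-117 at 703, and these 5 held 36.6% of kappa V RNA. Igkv15-103 came next at 576, then Igkv5-39 at 550, Igkv8-30 at 531, Igkv6-17 at 499 and Igkv6-25 at 477. Several of these were also prominent in the young libraries at far lower levels. Of the 10 highest segments, the WT libraries of both ages shared 6, the young genotypes shared 7 and the old genotypes shared 5. Igkv1-110 and Igkv10-96 were among the 10 highest in all 4 libraries.

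Some segments were well represented in every library, though their ranks varied. Igkv10-96 stood at 23.0, 38.00, 1116 and 78.4, with ranks of 1, 2, 3 and 9. Igkv6-23 stood at 20.7, 20.5, 1346 and 57.8, and Igkv15-103 at 13.6, 13.5, 576 and 37.99. In these last segments the young genotypes differed by -0.02 and -0.01 on the log2 scale. Igkv1-110 stood at 10.5, 24.7, 1830 and 152. Igkv6-25, Igkv12-46, Igkv9-120, Igkv1-135 and Igkv8-30 were also listed in every library at 6.67 or more.

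In old KO a single segment stood out. Igkv4-59 (ENSMUSG00000094006, chromosome 6, 69438218 to 69438757) stood at 1.60, 1.84, 94.3 and 549. It was 5.82-fold higher in KO than in WT at the old time, or 2.53 on the log2(scaled FPKM + 1) scale. It held 24.9% of kappa V RNA in old KO and 0.566% in old WT, where it ranked 35. In old KO it was 3.62-fold above the next segment, Igkv1-110, whereas the highest segment of old WT was 1.36-fold above its next.

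Nearly every other segment was lower in the old KO library. A segment counts as measured where its scaled value was 1 or more in either library, and as 2-fold different where log2(scaled FPKM + 1) differed by 1. Of 105 measured segments 92 were 2-fold lower in old KO and 1, Igkv4-59, was 2-fold higher, where 2.66% and 1.65% of all 12486 measured genes were. Of these 105, 10 were listed in old WT alone and could only come out lower. The median difference was -2.98 over the segments and 0.0021 over all measured genes. The 20 highest kappa V segments of old WT were all 2-fold lower, from -4.61 for Igkv10-94 to -2.09 for Igkv8-21. That set was picked by the old WT level, which itself favours lower values in KO, so it adds nothing to the count above. The largest differences were in Igkv6-13, at 171 and 1.93, Igkv12-98, at 57.4 and 0.528, Igkv3-12, at 78.3 and 1.42, and Igkv9-124, at 245 and 7.42. The quartiles of the 89 measured kappa V segments were -4.15 and -2.21, so segments differed from old WT by unequal factors.

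The 12 segments within 2-fold in the old pair on the log2(scaled FPKM + 1) scale were mostly low. Some of the low ones differed by over 2-fold as a plain ratio, such as Igkv3-9, 2.48-fold lower in KO. Igkv4-91 was not, at 103 and 95.1, and its share of kappa V RNA was 0.618% and 4.30%. Igkv14-126, at 210 and 143, was another. Igkv4-61 stood at 13.5 and 10.7, and Igkv12-89 at 6.66 and 5.002. The other 8, which include Igkv3-9, Igkv8-16, Iglj1 and Iglj3, were at 5.08 or below in both.

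**Figure D3:**
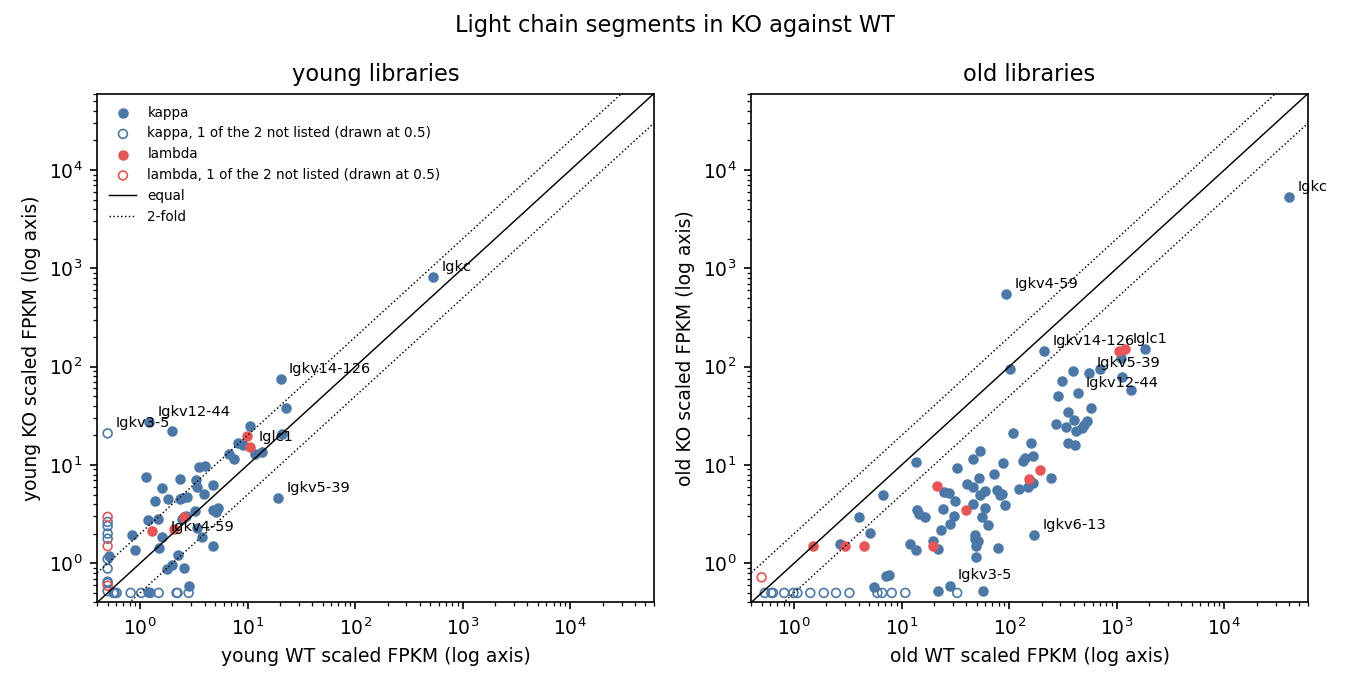
Scaled FPKM of each light chain segment in KO (vertical, log axis) against WT (horizontal, log axis), young at left and old at right. Dotted lines mark 2-fold, open circles are segments that 1 of the 2 libraries did not list, drawn at 0.5, and in the old panel Igkv4-59 is far above the upper line at 549 against 94.3.

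The young libraries differed less, and in both directions. Of 71 measured segments 15 were 2-fold higher and 6 were 2-fold lower in young KO, where 1.01% and 0.701% of 12416 measured genes were. Of these 71, 8 were listed in young KO alone and 6 in young WT alone. The median difference was 0.48, with 49 segments above 0 and 22 below. These values rest on few counted units, and a unit may hold more than 1 fragment. With the whole row taken as transcript, the median kappa V segment held at most 15.2, 20.6, 572 and 61.2 counted units. Of the 21 young differences, 9 were in segments with under 20 units at most in the higher library.

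The largest young differences were in V segments. Igkv3-5 went unlisted in WT and reached 21.0 in KO, at least 44.6-fold higher, and at 27.9 and 0.592 in the old pair. Igkv12-44 stood at 1.22 and 27.3 in the young pair and Igkv6-15 at 1.98 and 22.4. At most 115, 126 and 104 units stood behind these segments in young KO. Igkv10-94 stood at 1.13 and 7.47. In the other direction Igkv5-39 stood at 19.2 and 4.62, a difference of -1.84. Igkv1-117, at 5.10 and 3.35, and Igkv4-57-1, at 5.26 and 3.63, were next lowest among segments at 5 or more, and both were within 2-fold.

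Between ages, 101 of 105 measured segments were 2-fold higher in old than in young WT and none was 2-fold lower, where 4.22% and 1.34% of 12576 measured genes were. Of these 105, 38 were listed in old WT alone and could only come out higher. In KO 47 of 91 were 2-fold higher in the old library and 1, Igkv3-5, was 2-fold lower, where 4.95% and 2.25% of 12543 were. Of these 91, 21 were listed in old KO alone and 1 in young KO alone. The summed level was 71.7-fold higher in the old library for WT and 5.88-fold for KO. Age and whatever else differs between the pairs, which includes Xist, cannot be told apart.

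V segments fall into families of related sequence, named by the number before the dash. Family 6 was the largest in both WT libraries, with shares of kappa V RNA of 17.6%, 17.1%, 25.3% and 15.7%. Family 1 held 11.01%, 9.72%, 19.1% and 13.2%. Family 14 was first in young KO, with 10.6%, 18.9%, 3.26% and 9.06%, and most of its young KO value was Igkv14-126. Family 4 was first in old KO, with 9.06%, 5.70%, 6.51% and 32.8%. It has the most rows, 24 of 94, yet ranked 6 in each of the other libraries. Igkv4-59 was 75.9% of family 4 in old KO and 8.71% in old WT, and without it the family held 10.5% in old KO.

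Families were lower in old KO by unequal factors. The sum of family 6 stood at 4209 and 346, 12.2-fold lower, and that of family 1 at 3182 and 291, 10.9-fold lower. Family 10 stood at 1546 and 95.9, 16.1-fold lower, and family 3 at 397 and 20.5, 19.4-fold lower. Family 14 stood at 543 and 200, only 2.71-fold lower, and family 4 at 1083 and 724. All 8 segments of family 6 were 2-fold lower, as were all 3 of family 10 and all 3 of family 2. Of 21 measured segments of family 4, 18 were 2-fold lower and 1 was higher. These family counts are near the 87.6% of all measured kappa V segments that were 2-fold lower, where 2.66% of all measured genes were. In the young pair family 3 stood at 4.72 and 24.4, most of the latter from Igkv3-5, and family 5 at 23.7 and 16.4.

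**Figure D4:**
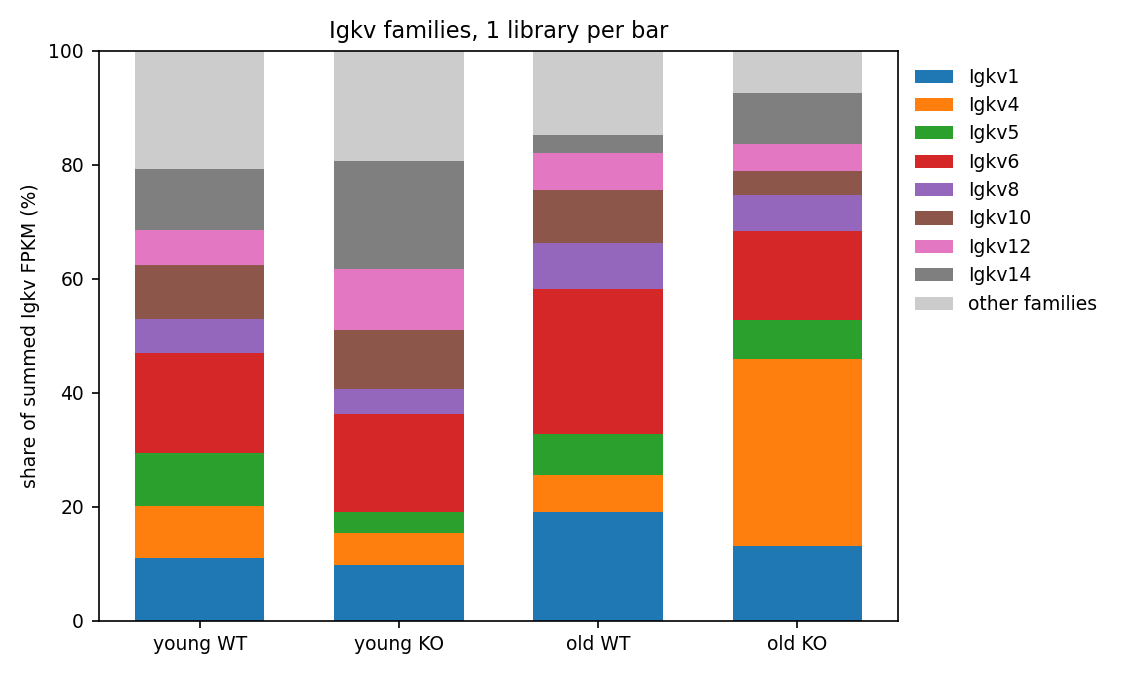
Share of summed Igkv FPKM (%) held by the named families and by all others, with 1 stacked bar per library. Family 4 takes 32.8% in old KO and 5.70% to 9.06% elsewhere.

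By the effective number, kappa V use was spread most widely in old WT and least widely in old KO, an order that depends on Igkv4-59 and on how unlisted segments are treated. The effective number of segments, the exponential of the Shannon entropy, was 34.4, 28.5, 38.1 and 24.4, of 56, 56, 94 and 79 listed. Pielou's evenness, the entropy over its maximum for the number listed, was 0.879, 0.832, 0.801 and 0.731. The highest segment held 8.99%, 16.5%, 10.99% and 24.9%, and 8, 7, 10 and 6 segments sufficed to reach 50%. By both indices each KO library was less even than the WT library of its age. With only segments at an FPKM of 5 or more, the young order turned, at 13.7 and 16.1. Without Igkv4-59 the effective numbers were 33.9, 28.1, 37.6 and 33.2, so that young KO was the lowest, and Pielou's evenness of the old pair was 0.79995 and 0.80397. With unlisted segments at 0.5 young WT was the highest, at 44.1, 34.2, 38.1 and 24.9. Over segments listed in all 4 libraries young WT was also the highest, at 29.5, 24.6, 27.2 and 19.3. Without the highest segment of each library the values were 35.0, 32.3, 40.5 and 33.2.

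Profiles of kappa V use were compared as the summed smaller share of each segment, which is 100% for equal profiles. The young genotypes shared 66.9% and the old genotypes 60.3%. The WT libraries of both ages shared 66.9% and the KO libraries 52.3%. Leaving out Igkv4-59 brought the old genotypes to 72.1% and the KO libraries to 61.9%, and left the other values just given at 66.8% for the young genotypes and 66.7% for the WT libraries. Across the 79 segments listed in both old libraries the Spearman rho of levels was 0.80, and across the 46 listed in both young ones it was 0.56. Segments of a pair share library depth and sequence similarity, so these are descriptions.

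**Figure D5:**
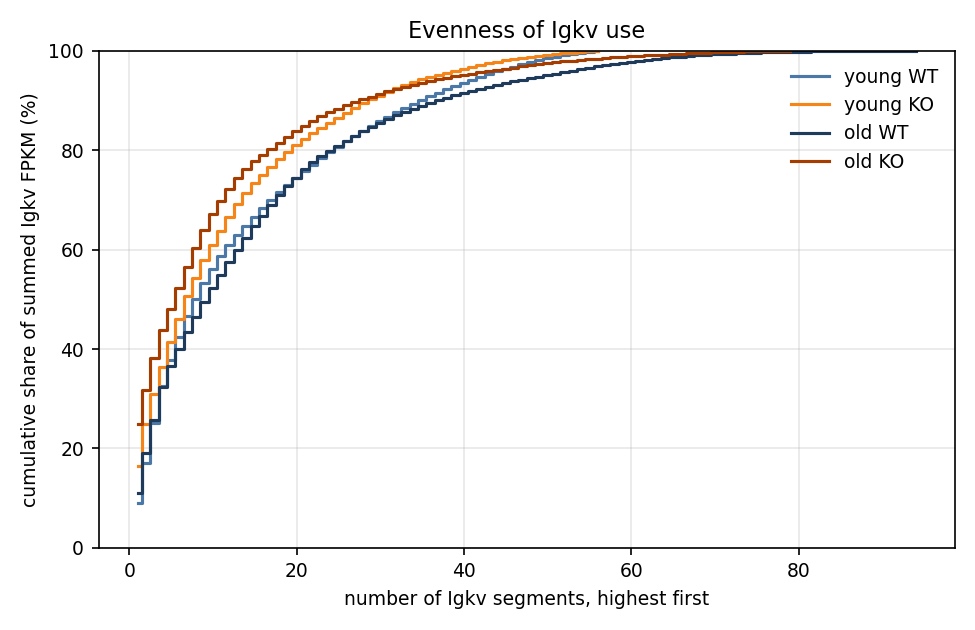
Cumulative share of summed Igkv FPKM (%) against the number of segments, highest first, with 1 line per library. The old KO line starts at 24.9% and reaches 50% with 6 segments, and old WT needs 10.

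The summed plasma cell markers had the same order of libraries as the light chains, though single markers did not all have it, and Jchain made up most of the sum in old WT. Of the 13 plasma cell markers, 7, 8, 13 and 12 were listed, and 12 of 13 were 2-fold lower in old KO. Over all measured genes the share lower was 2.66%. Jchain, which links IgA and IgM into polymers, stood at 13.0, 19.7, 1891 and 141. Mzb1, a chaperone of antibody chains, stood at 2.60, 4.98, 106 and 11.2. Prdm1, a transcription factor of plasma cells, was listed in the old pair alone, at 7.84 and 1.18. Sdc1, their surface marker CD138, stood at 1.65, 1.49, 14.5 and 2.75. Cd38, the marker not 2-fold lower, stood at 1.23, 0.570, 1.37 and 1.77.

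Most mature B cell markers were not listed. Of 10 mature B cell markers 5 were in any file, and Ms4a1, Cd22, Cr2, Fcer2a and Bank1 were in none. Their summed level was 9.79, 7.56, 44.1 and 17.9, most of it from Cd79a and Cd79b, which signal for the B cell receptor. Cd79a was listed in the old pair alone, at 23.4 and 3.84. The surrogate light chain genes Igll1, Vpreb1 and Vpreb2, whose products pair with the heavy chain before a light chain exists, were listed in old KO alone, at 1.62, 0.824 and 1.45. Vpreb3, also on the list of surrogate light chain and receptor genes, was listed in old WT alone, at 0.716. The whole list of 9 pro-B and pre-B cell markers, to which Igll1, Vpreb1 and Vpreb2 belong, summed to 179, 134, 197 and 229. The median difference was 0.63 over the 8 measured in the old pair, and none of them was 2-fold different. Over all measured genes 2.66% were 2-fold lower and 1.65% higher in old KO. Most of the sum of this list was Dntt and Cd93, which early progenitors also express, with Cd93 at 62.9, 62.8, 71.2 and 95.4. Il7r, the interleukin-7 receptor chain of early lymphoid cells, stood at 3.67, 4.36, 5.01 and 8.64. Ebf1, a transcription factor of B cell commitment, was listed in the KO libraries alone, at 0.836 and 1.25. T cell markers summed to 3.17, 1.66, 5.99 and 8.88.

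The genes of V(D)J recombination did not follow the light chain levels. Of 12 measured in the old pair 1 was 2-fold lower in KO, the end-binding subunit gene Xrcc5, at 15.0 and 6.62, and none was higher. None of 11 measured in the young pair was 2-fold different. Of all measured genes 2.66% were 2-fold lower and 1.65% higher in old KO. In young KO 0.701% were lower and 1.01% higher, so lists this short would hold few calls by these shares alone. Rag1, of the recombinase, stood at 1.40 and 2.70 in the young pair and in the old pair was listed in KO alone, at 1.72. Rag2 stood at 0.539, 1.37, 0.648 and 1.17. The log2(scaled FPKM + 1) scale understates such low genes. As plain ratios with unlisted genes at 0.5, Rag1 in the old pair and Rag2 in the young pair were over 2-fold higher in KO. Dntt, which adds nucleotides at joins, stood at 110, 61.9, 120 and 117.

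Of the regulators of light chain loci, 15 were measured in the old pair, and 3 were 2-fold lower and 2 were 2-fold higher in KO. Over all measured genes of that pair the shares were 2.66% and 1.65%. None of 12 measured in the young pair was 2-fold different, where 0.701% of all measured genes were lower and 1.01% higher. Irf4, which acts at light chain enhancers and is also on the plasma cell list, stood at 33.9 and 4.41 in the old pair, Pou2af1, a coactivator of octamer factors, at 29.3 and 8.06, and Ikzf3 at 3.20 and 1.03. Irf8 stood at 11.7 and 37.5 and Spi1 at 11.1 and 24.3, and both also act in myeloid cells. Of 13 measured genes of antibody assembly and secretion, Derl3 was 2-fold higher in young KO and none was lower. In old KO Jchain, Mzb1 and Derl3 were 2-fold lower, and all of these are also on the plasma cell list. The general chaperones Hspa5, at 98.2 and 81.7, and Hsp90b1, at 127 and 103, were within 2-fold.

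Heavy chain segments had the same order of libraries, with sums of 521, 749, 25199 and 4496. The old KO library was 5.60-fold below WT for heavy chains, against 7.56-fold for light chains. Light chain constant regions stood at 3.90, 4.18, 5.80 and 4.54 times those of the heavy chains. Of 7 heavy constant regions measured in the old pair 5 were 2-fold lower in KO and none was higher. Over all measured genes 2.66% were lower and 1.65% higher. Igha stood at 5796 and 480 and Ighg2c at 378 and 33.1, whereas Ighm stood at 490 and 649 and Ighg3 at 18.3 and 20.7. Whether the RNA of Ighm, Ighg3 and Igkv4-59 came from the same cells cannot be read from bulk samples.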

How the data were processed

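The authors deposited 1 table per RNA library that gives an FPKM for each gene, according to the file headers. Of the tools in the submitters' processing notes, HISAT2 2.0.4 and StringTie 1.3.0 bear on RNA, and the build is mm10. The 2 bisulfite samples were not analysed here. Scale factors are medians of ratios over the 10939 genes at an FPKM of 1 or more in every library. Differences of single genes are of log2(scaled FPKM + 1), which understates low genes. Differences of sums are plain log2 ratios.

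All 111 members matched a table of identifiers and symbols, where 3 carry another symbol (the row named Igkv12-47 and 1 row each of Igkv4-73 and Igkv19-93); the files' symbols are printed. Annotation came from RefSeq. No sequences of these segments were used here.

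A counted unit is the largest spacing of FPKM times locus length among genes under 1500 bases that explains low values nearly as well as the best (within 0.02 of whole). It was 0.105, 0.111, 0.0560 and 0.0554, and 67.8% to 77.4% of 140 to 159 values were whole. Evenly spread values give 4% at a spacing fixed beforehand. The spacing was picked on these same values, so 4% is too low a level to set beside these shares. Whether depth differed between ages was not resolved. Units per V or constant segment are upper limits, since a row can be longer than its exons.

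Named were all J, constant and lambda V segments, the 10 highest Igkv of each library, the 10 with the highest lowest value, up to 5 per direction in each KO comparison at 5 or more, and genes of the lists. The segments within 2-fold in the old pair and the unlisted functional segments were named after their values were seen, and so were the position windows chosen. Members and lists were chosen with earlier results of these data known. The steps were tested on simulated data built from genes listed in every library. The simulated data held no unlisted values and no counting noise from few fragments, so they do not cover low segments. Python 3.11.15, numpy 2.4.6 and pandas 2.3.3 were used.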

Additional observations from a re-analysis of the deposited data

Results flagged for a closer look

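The KO difference had opposite signs in the young and old pairs for the light chain sums. This difference between ages was not tested, since each group has 1 library. The summed light chain level differed by 0.69 in the young and -2.92 in the old pair on the log2 scale, a gap of -3.61. The gap was -3.53 for Igkc, -3.73 for the summed Igkv, -3.93 for the summed Iglv and -3.75 for the summed Iglc. These gaps are of plain log2 ratios. For named V segments 2-fold higher in young KO and 2-fold lower in old KO, the gap was taken on the log2(scaled FPKM + 1) scale. It was -8.08 for Igkv3-5, -6.65 for Igkv12-44, -6.60 for Igkv10-94, -6.13 for Igkv6-15 and -4.74 for Igkv1-110. In young WT Igkv3-5 was not listed, and Igkv12-44, Igkv10-94 and Igkv6-15 stood at 1.22, 1.13 and 1.98.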

How the results depend on the processing

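No paired analysis was possible because each group has 1 library and the labels carry no replicate numbers; for the same reason no replicate could be left out. A value counted as moved when it changed by over 1.5 times. The summed light chain differences did not move under other scalings, with unlisted segments at 0.5 or without Igkc, at 0.57 to 0.81 in the young and -2.94 to -2.92 in the old pair. Leaving out Igkc, Igkv4-59 or pseudogenes and using reference symbols were chosen after seeing the data. The lambda share by V segments was 4.43%, 4.73%, 7.09% and 6.66%, by J segments 18.4%, 29.0%, 18.5% and 21.9%, and by all segments 3.53% in young KO. At an FPKM of 5 or more the effective number of Igkv segments was 13.7 and 16.1 in the young pair. The family with the largest share held, by number of listed segments, 19.0% in old KO, 8.51% in old WT and 5.36% in young KO, and without the highest segment 2.93% in young KO and 10.5% in old KO. In the young pair 24 segments were higher and 10 lower with a pseudocount of 0.1, and 5 and 1 with a pseudocount of 5; 1 was lower among those at 5 or more. The cause was not tested. In the old pair 87 to 95 segments were lower and 1 was higher under the alternatives run. All 80 alternative values of single segments kept their direction. In the young pair the kappa J segments rest on about 1 unit or less each.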
